A study of Mus musculus with 6 samples.

Results

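The genes described here encode the proteasome, the protein complexes that assemble and regulate it, and 4 ubiquitin ligases of striated muscle. They were chosen by symbol: every protein-coding gene of the NCBI Build 37 (mm9) annotation whose symbol starts with Psma, Psmb, Psmc, Psmd, Psme, Psmf or Psmg (50 genes), together with Fbxo32, Trim63, Trim55 and Trim54. These were 54 of 22219 protein-coding genes. The prefix also took in Psmc3ip, which encodes a partner of the meiotic recombinases and is no proteasome subunit, and Psme2b-ps, an intronless copy of Psme2 that is annotated as protein-coding. Psmd5, Psmd9 and Psmd10 carry the prefix of subunits but encode chaperones of base assembly, and were placed with the other chaperones.

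Chromatin came from myotubes differentiated from primary myoblasts of wild-type C57BL/6 fetal limb muscle (E18.5), a culture at passage 17 that had been kept for 48 h in medium with 2% horse serum. All groups share this origin, and no second genotype, treatment or time enters the comparisons. Sox6, a transcription factor with an HMG box, and RNA polymerase II (Pol II, antibody 4H8, which recognises the repeats of its C-terminal domain) were each immunoprecipitated in 2 experiments, and input DNA, the chromatin before immunoprecipitation, was sequenced for each (2 libraries). The mapped reads numbered 2985437 and 1468604 for Sox6, 1538757 and 2762155 for Pol II, and 21973495 and 24249850 for input.

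The 26S proteasome is the main protease of the cytosol and nucleus and degrades proteins tagged with ubiquitin chains. Its 20S core is a barrel of outer alpha and inner beta rings, whose catalytic beta subunits cut the substrate, and its 19S cap recognises, unfolds and feeds the tagged protein through a ring of ATPases. Dedicated chaperones assemble the particle, interferon-inducible beta subunits replace the constitutive catalytic ones in immunoproteasomes, and other activators can take the place of the cap. In muscle, atrogin-1 (Fbxo32) and MuRF1 (Trim63) are ubiquitin ligases best known for their rise in wasting muscle. MuRF2 (Trim55) and MuRF3 (Trim54) are relatives of MuRF1 at the sarcomere and microtubules.

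The cells carried the Pol II pattern of myotubes. All 12 myotube markers (among them Myog, Myh3, Acta1 and Ttn) had more Pol II than input both at the start site and in the gene body, with median log2 ratios of 5.48 and 5.14. Of 7 fibroblast markers none was higher than input in the body and 5 were lower, and the 4 endothelial markers were all lower there. Of 2 blood markers tested Cd68 was higher and Ptprc lower, and of 3 glial, 3 adipocyte and 4 cycling-cell markers none was higher in the body and 1, 1 and 2 were lower. Reads in Pol II libraries fell less often in the regions that serve as background (15.0% and 14.4% of reads, against 35.7% and 34.9% in input). These were 118188 bins of 10 kb away from protein-coding genes, not chosen by their number of reads. Scaling to those regions, in place of all reads, would raise the median Pol II log2 ratio of all genes from 1.99 to 3.26 at start sites and from 0.16 to 1.43 in bodies, so Pol II ratios below are relative to the total of each library. With that scaling 46 of 48 members were higher at the start and 49 of 53 in the body, with none lower, and over all genes the share higher went from 62.8% to 78.8% at the start, and in the body from 39.4% to 64.4%, with 2.48% lower in place of 25.5%.

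Pol II was measured first at the start site (5' ends of reads within 500 bp on either side, in RPM, reads scaled to the total of the library) and then in the gene body (from 500 bp after the start to the end of the longest model, in RPKM, that is RPM per kilobase). Each was compared with input by limma on log2 values with 0.5 reads added, adjusted over all genes tested, and a gene was called at an adjusted p under 0.05. At start sites 41 of the 48 members tested were higher than input and none was lower, where 62.8% of 11983 genes were higher. In other settings up to 2 members were lower there. The median log2 ratio was 2.54 for these members and 1.99 for all genes tested. Within 250 bp of the start the medians were 2.94 and 2.90, over the 34 members and 4617 genes tested there. The test left out genes with fewer than 20 reads over the 4 libraries. Within 250 bp only 8 members passed it with Sox6 reads in place of Pol II reads. Most of the 34 were thus tested there only through their Pol II reads. Within 500 bp 4 members (Psma4, Psmc3, Psme4 and Psmd10) passed only with the help of their Pol II reads, so their place in the test depended on those reads. Without that filter 43 of 54 members were higher, against 46.1% of 22219 genes, with medians of 2.53 and 1.46. The 2 added were Psma7 (1 and 3 Pol II reads against 1 and 5) and Psme2b-ps, which had no Pol II read at all, so that its ratio came from the 0.5 reads added at unequal depth. In gene bodies 45 of the 53 members tested were higher than input and 2 were lower. Of 18683 genes 39.4% were higher and 25.5% were lower. Without the filter 45 of 53 were higher, against 38.4% of genes, and 3 were lower (Psmb8 in addition), against 23.5%. With the filter the medians were 1.58 for the members and 0.16 for all genes tested.

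**Figure D1:**
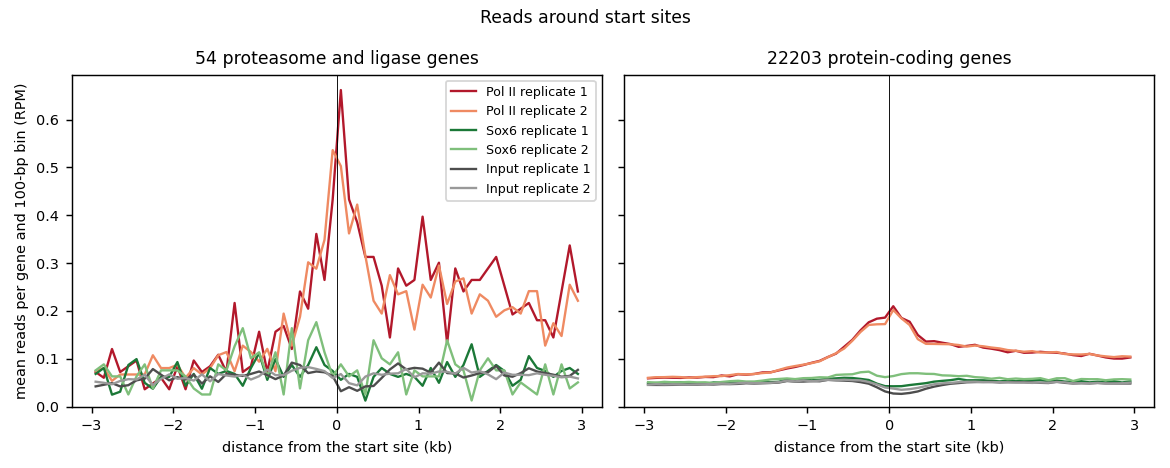
Mean reads per gene in 100-bp bins (RPM) against distance from the start site (kb, direction of transcription to the right) for the 54 proteasome and ligase genes and for 22203 protein-coding genes (16 genes with over 100 input reads at the start left out), 1 line per library. Over the 54 genes Pol II was highest at 0.662 and 0.536 RPM next to the start site, against 0.21 and 0.202 over all genes. Sox6 over these genes was highest at 0.13 RPM (1650 bp after the start) and 0.177 RPM (250 bp before it). Over all genes its highest bins were 0.0601 and 0.073 RPM. Input was highest at 0.0919 and 0.0825 RPM over the 54 genes, and 0.0559 and 0.0561 RPM over all genes. Sox6 and input differ in depth, so their highest bins are not compared.

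The alpha ring of the 20S core gates access to the catalytic chamber. Of its 8 members Psma1, Psma2, Psma3, Psma4 and Psma5 were higher than input at the start site, Psma6 was not, and Psma7 and the testis paralog Psma8 had too few reads to test. Psma3 had the highest ratio of the group: 9 and 7 Pol II reads (5.85 and 2.53 RPM) stood against 8 and 14 input reads (0.364 and 0.577 RPM), a log2 ratio of 3.09 ± 0.52 (SE, n = 2 against 2, limma adjusted p = 1.1e-08). In bodies 7 of the 8 were higher. The alternative alpha subunits Psma7 and Psma8 lay at opposite ends. Psma7 had 3.39 and 3.71 RPKM of Pol II against 0.671 and 0.638 RPKM of input, a log2 ratio of 2.45 ± 0.22 (adjusted p = 9.37e-06). Psma8, which replaces Psma7 in the proteasomes of male germ cells, had 0.21 and 0.0846 RPKM of Pol II and 0.319 and 0.288 RPKM of input, both Pol II libraries below both inputs, at −1.14 ± 0.36 (adjusted p = 0.0196). With scaling to background regions this ratio became 0.13, so its direction depends on the scaling, and the call was also lost without input replicate 1 (−1.07).

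Psma6 had no Pol II reads at the start of its longest model (0 and 0, against 11 and 16 input reads), although its body held 71 and 99 Pol II reads, or 1.37 and 1.07 RPKM against 0.592 and 0.567 RPKM of input (log2 ratio 1.07 ± 0.15, adjusted p = 0.000201). For a count of 0 the limit of 3 reads was 1.95 and 1.09 RPM, above the input levels of 0.501 and 0.66 RPM, so a level below input was not detectable at this depth. The annotation holds a further protein-coding start 14553 bp downstream. Within 500 bp of it lay 12 and 27 Pol II reads (7.8 and 9.77 RPM) against 20 and 14 input reads (0.91 and 0.577 RPM), and Pol II was above input in both experiments. Psmf1, which encodes an inhibitor and binding partner of the 20S core (PI31), showed a like arrangement. Its longest model had 1 and 1 Pol II reads at the start, and a further start 2876 bp downstream had 9 and 5 Pol II reads (5.85 and 1.81 RPM) against 18 and 13 input reads (0.819 and 0.536 RPM). Both further starts were looked at after the values of the main ones were seen and were not tested. Of the 54 members 12 have an annotated protein-coding start over 1 kb away from the one used here. The bases upstream of both Psma6 starts are given because the reads separate them, 5' to 3', with each CCAAT box (CCAAT on either strand) in capitals. The upstream start has 2 such boxes in its 250 bases, and the start where Pol II lay has none.
Psma6, start of the longest model, chr12:56484959-56485208 (mm9, plus strand): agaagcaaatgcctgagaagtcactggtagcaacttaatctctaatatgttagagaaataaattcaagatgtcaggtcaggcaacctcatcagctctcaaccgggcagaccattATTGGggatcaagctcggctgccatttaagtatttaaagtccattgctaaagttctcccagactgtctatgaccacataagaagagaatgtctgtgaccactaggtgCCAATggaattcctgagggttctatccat
Psma6, further start, chr12:56499512-56499761 (mm9, plus strand): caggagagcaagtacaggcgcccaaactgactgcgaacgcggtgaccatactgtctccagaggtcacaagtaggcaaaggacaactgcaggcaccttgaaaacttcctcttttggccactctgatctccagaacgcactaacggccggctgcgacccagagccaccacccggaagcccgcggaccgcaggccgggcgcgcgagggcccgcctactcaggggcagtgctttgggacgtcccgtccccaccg

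The 7 constitutive beta subunits, which include the catalytic Psmb5, Psmb6 and Psmb7, were all higher than input at the start site and in the body. Their start ratios were close to each other, from 1.55 ± 0.52 for Psmb5 to 2.88 ± 0.41 for Psmb2. Psmb2, a structural subunit, had 7 and 17 Pol II reads (4.55 and 6.15 RPM) against 15 and 19 input reads (0.683 and 0.784 RPM; adjusted p = 1.5e-11). Psmb5, the chymotrypsin-like subunit, had 5 and 4 Pol II reads (3.25 and 1.45 RPM) against 15 and 23 (0.683 and 0.948 RPM; adjusted p = 0.00503). The Psmb5 call was lost with a pseudocount equal in RPM and with all 6 libraries in 1 fit, without Pol II replicate 1 (log2 ratio 0.98), and without input replicate 1 (1.32).

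Of the 4 inducible and tissue-restricted beta subunits none was higher than input in the body. Differences between these genes and their constitutive counterparts were not tested. Psmb8, the interferon-inducible counterpart of Psmb5, had 0 and 0 Pol II reads over 3164 bp of body, and 21 and 24 input reads (0.302 and 0.313 RPKM), whereas Psmb5 had 1.58 and 2.05 RPKM of Pol II. The limit of 3 reads was 0.616 and 0.343 RPKM, so no fold is given. Psmb9, the counterpart of Psmb6, had 0 and 2 Pol II reads in the body against 45 and 44 input reads and was called lower there (limma adjusted p = 0.0409). Psmb6 had 2.95 and 2.88 RPKM of Pol II. At its start site Psmb9 had 0 and 0 Pol II reads against 7 and 16 input reads and was not called (−0.99 ± 0.81, adjusted p = 0.29). The limit of 3 reads there was 1.95 and 1.09 RPM, above its input of 0.319 and 0.66 RPM. The Psmb9 body call was lost when either input was left out, when 2 reads were added to each count, with a pseudocount equal in RPM, and with scaling to background regions. Psmb10 and its counterpart Psmb7 had like ratios in the body. Psmb7 had 1.64 and 1.64 RPKM of Pol II (1.2 ± 0.094) and was called. Psmb10 had 2.4 and 0.836 RPKM of Pol II against 0.673 and 0.61 RPKM of input in the body (1.24 ± 0.55, adjusted p = 0.074), and was called higher at the start site, with 3 and 5 Pol II reads against 12 and 13 (1.92 ± 0.62, adjusted p = 0.00377), a call lost without input replicate 1. Psmb11, the thymus subunit, had 0.52 and 0.29 RPKM of Pol II and 0.559 and 0.44 RPKM of input. Psmb8 is overlapped over 58.4% of its length by Gm20496, and the start of Psmb9 lies within 1 kb of that of Tap1 on the opposite strand. Input itself was low in Psma8, Psmb8, Psmb9 and Psmg4 (0.288 to 0.388 RPKM), where the median member had 0.605 and 0.58 RPKM. Its part in these values was not tested.

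**Figure D2:**
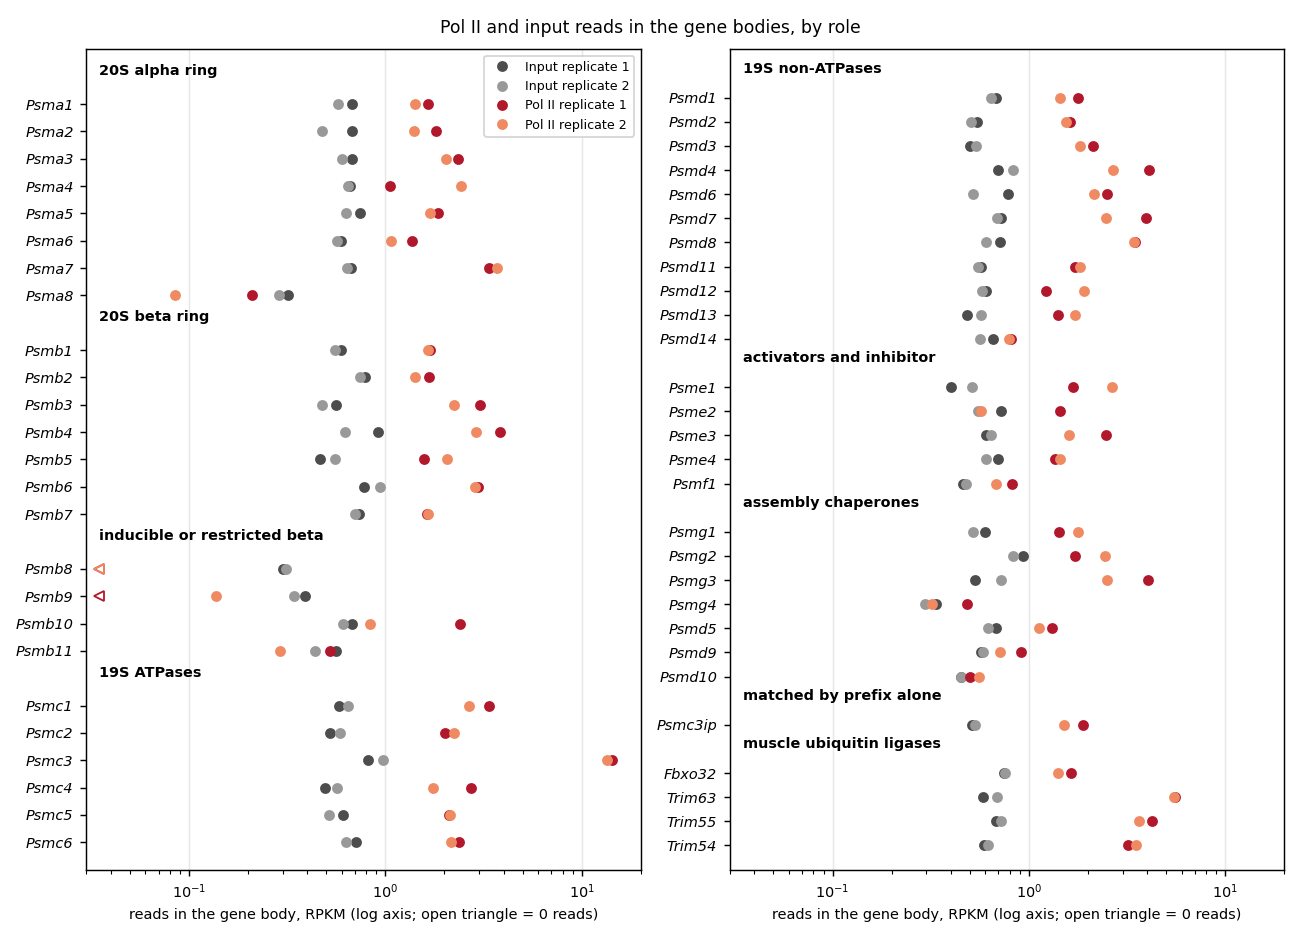
Reads in the gene body (RPKM, log axis) of the 53 genes long enough to measure, grouped by role, with 1 point for each Pol II and input library and an open triangle for 0 reads. Psmc3 lay at 14.3 and 13.5 RPKM of Pol II, Psmb8 at 0, and the 7 constitutive beta genes between 1.42 and 3.84 RPKM, all above their inputs.

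The 6 ATPases of the 19S base thread the substrate into the core. All 6 were higher than input in the body, from 1.77 ± 0.14 for Psmc6 to 3.96 ± 0.12 for Psmc3. At the start site 4 were higher and Psmc2 and Psmc4 were not called. Psmc2 had 3 and 2 Pol II reads (1.95 and 0.724 RPM) against 16 and 12 input reads (0.728 and 0.495 RPM), at 1.21 ± 0.69 (adjusted p = 0.117). Its start lies 32 bp from that of Dnajc2 on the opposite strand. Psmc4 had 1 and 5 Pol II reads against 15 and 15, at 1.05 ± 0.68 (adjusted p = 0.168). In their bodies both were higher than input, with 2.02 and 2.23 RPKM against 0.521 and 0.589 RPKM for Psmc2 and 2.72 and 1.74 RPKM against 0.496 and 0.564 RPKM for Psmc4.

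Psmc3 had more Pol II in its body than any other member. It held 260 and 440 Pol II reads (14.3 and 13.5 RPKM) against 213 and 279 input reads (0.821 and 0.974 RPKM), a log2 ratio of 3.96 ± 0.12 (adjusted p = 1.89e-08) that was above 99.3% of all genes tested. At the start site it had 12 and 13 Pol II reads against 8 and 11 (3.88 ± 0.47, adjusted p = 1.17e-15). The reads were not spread evenly: the densest 1-kb bin lay 9 to 10 kb after the start in replicate 1 (26.6 RPKM) and 6 to 7 kb after it in replicate 2 (21 RPKM). The last 4579 bp of Psmc3 are shared with Slc39a13, a zinc transporter gene on the opposite strand, and the files do not tell the strand of transcription. The shared stretch had 17.6 and 15.7 RPKM of Pol II and the 7235 bp of Psmc3 body outside it had 12.2 and 12.1 RPKM, against 0.887 and 0.997 RPKM of input there (log2 ratio 3.69). The rest of Slc39a13 had 8.83 and 11.3 RPKM. The level outside Slc39a13 was uneven. It was 11.7 and 7.6 RPKM from 0 to 1000 bp after the start of Psmc3, and 5.2 and 6.88 RPKM from 1000 to 2000 bp. From 6000 to 7000 bp, near the end of Slc39a13, it was 26 and 21 RPKM. The reads cannot be told apart between both genes, and the part of Slc39a13 was not tested.

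The 11 non-ATPase subunits of the 19S cap, which bind ubiquitin chains and scaffold the lid, were all higher than input at both places. Start ratios ran from 1.53 ± 0.51 for Psmd1 to 3.20 ± 0.44 for Psmd13. Psmd13 had 8 and 14 Pol II reads (5.2 and 5.07 RPM) against 13 and 13 input reads (0.592 and 0.536 RPM; adjusted p = 4.64e-12), and its start lies within 1 kb of that of Sirt3 on the opposite strand. Psmd1 had 5 and 4 Pol II reads against 13 and 27 (adjusted p = 0.0053), and its call was lost without Pol II replicate 1 (0.96), without input replicate 1 (1.09) and in 4 further settings (a pseudocount equal in RPM, all 6 libraries in 1 fit, outermost gene ends, 1 kb on each side). Htr2b overlaps 17.4% of it. In the body Psmd14, the deubiquitinase of the lid, had the lowest ratio of the group, with 0.811 and 0.792 RPKM against 0.655 and 0.562 RPKM (0.41 ± 0.11, adjusted p = 0.00809), a call lost without input replicate 2. Psmd8 had the highest, with 3.47 and 3.45 RPKM against 0.715 and 0.606 RPKM (2.4 ± 0.21).

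Among the alternative activators, Psme4 (PA200), which passed the filter only through its Pol II reads, had the highest start ratio of the 4 tested, with 6 and 11 Pol II reads (3.9 and 3.98 RPM) against 9 and 10 input reads (0.41 and 0.412 RPM), at 3.28 ± 0.53 (adjusted p = 3.84e-09). Psme1 and Psme2 encode the paired subunits of PA28, an activator induced by interferon, and Psme3 its nuclear relative. Psme1 and Psme3 were higher than input at both places. Psme2 was called at neither, with 1 and 5 Pol II reads against 18 and 10 at the start (1.21 ± 0.70, adjusted p = 0.124) and 1.44 and 0.573 RPKM against 0.72 and 0.548 RPKM in the body (0.63 ± 0.51, adjusted p = 0.295). The Pol II and input libraries overlapped in the body. The copy Psme2b-ps had no Pol II read and at most 1 input read at its start and a body of 336 bp, too short to test, and other annotated genes overlap all of it.

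Of the 7 chaperones that assemble the core and base, Psmg1, Psmg2, Psmg3, Psmd5 and Psmd10 were higher than input at the start site. Psmd5 had the highest ratio (12 and 13 Pol II reads against 8 and 14, 3.71 ± 0.45, adjusted p = 2.01e-15), next to Psmg1 (14 and 22 against 15 and 15, 3.71 ± 0.38). These neighbours do not differ beyond their errors. Psmg4 had the lowest, with 1 and 4 Pol II reads (0.65 and 1.45 RPM) against 16 and 18 (0.728 and 0.742 RPM), at 0.74 ± 0.67 (adjusted p = 0.343), and was not called in the body either (0.486 and 0.32 RPKM against 0.337 and 0.297 RPKM). Psmd10 was not called in the body and had the lowest ratio of the group there, with 0.5 and 0.557 RPKM against 0.449 and 0.449 RPKM (0.31 ± 0.32, adjusted p = 0.411). Psmd9 was not called at the start (2 and 3 reads against 12 and 24, 0.92 ± 0.64, adjusted p = 0.208). It was called in the body at 0.50 ± 0.18 (adjusted p = 0.0379), a call lost without Pol II replicate 1 or either input, with voom weights, with a pseudocount equal in RPM and with all 6 libraries in 1 fit. Psmc3ip, matched by its prefix, had 13 and 20 Pol II reads against 16 and 10 at the start (3.82 ± 0.40, adjusted p = 2.76e-20). It is overlapped over 10.7% by Mlx.

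All 4 muscle ubiquitin ligases had more Pol II than input at the start site and in the body. Trim63 (MuRF1) had the highest start ratio of all members tested: 22 and 18 Pol II reads (14.3 and 6.52 RPM) stood against 13 and 15 input reads (0.592 and 0.619 RPM), at 3.98 ± 0.37 (adjusted p = 3.64e-25). Its body had 5.52 and 5.48 RPKM against 0.585 and 0.692 RPKM (3.11 ± 0.14, adjusted p = 1.35e-07), above 97.6% of genes tested. Trim54 (MuRF3) had 10 and 37 Pol II reads (6.5 and 13.4 RPM) against 22 and 16 at the start (3.53 ± 0.35), and 3.18 and 3.51 RPKM against 0.591 and 0.622 RPKM in the body (2.47 ± 0.13).

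Trim55 (MuRF2) had 15 and 21 Pol II reads (9.75 and 7.6 RPM) against 39 and 35 input reads (1.77 and 1.44 RPM) at the start (2.45 ± 0.32), and 4.25 and 3.66 RPKM against 0.676 and 0.721 RPKM in the body (2.50 ± 0.10). Fbxo32 (atrogin-1) had the lowest body level of the ligases. It had 1.63 and 1.4 RPKM against 0.751 and 0.756 RPKM (1.01 ± 0.12, adjusted p = 7.32e-05), and 5 and 8 Pol II reads against 7 and 16 at the start (2.78 ± 0.56, adjusted p = 1.94e-06). In both experiments the body level of Trim63, Trim55 and Trim54 was above that of Fbxo32. For scale, Actb had 22.6 and 32.1 RPKM of Pol II in its body, above every member. The 250 bases upstream of Trim63 are shown because they precede the highest start ratio. Capitals mark a TATAAA match 31 bases before the start and an E-box (CAGCTG or CAGGTG on either strand, the core bound by myogenic factors) 72 bases before it.
Trim63 promoter, chr4:133870785-133871034 (mm9, plus strand): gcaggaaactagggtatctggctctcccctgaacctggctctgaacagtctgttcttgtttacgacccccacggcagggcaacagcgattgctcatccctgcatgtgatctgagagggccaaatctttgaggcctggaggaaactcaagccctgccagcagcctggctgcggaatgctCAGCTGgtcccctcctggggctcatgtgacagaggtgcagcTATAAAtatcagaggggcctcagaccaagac

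**Figure D3:**
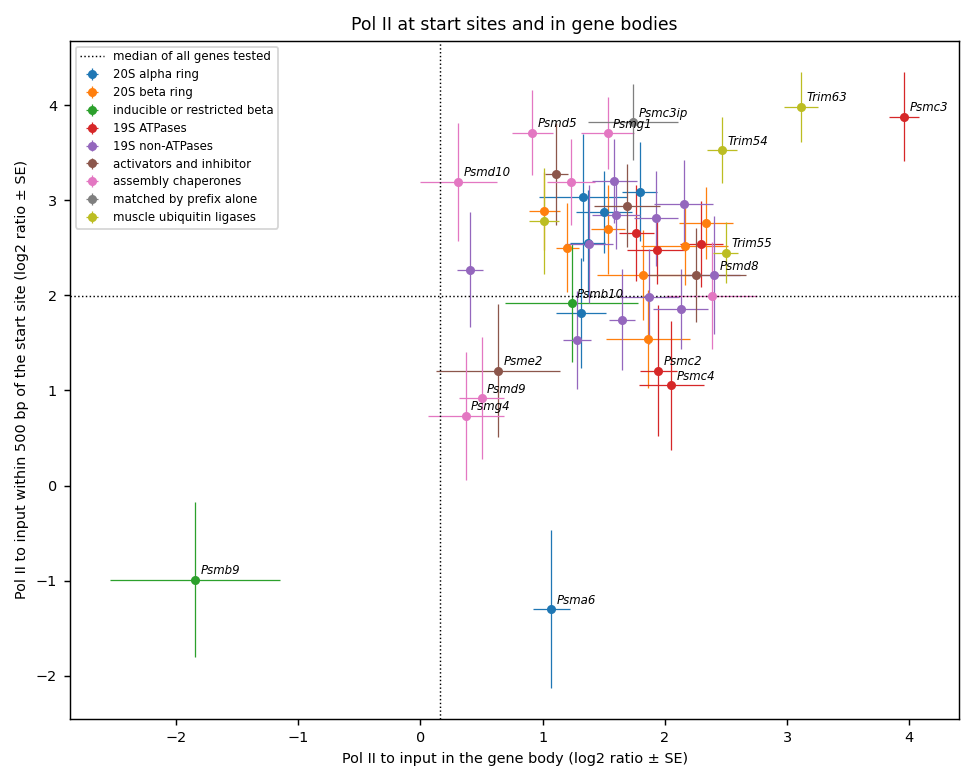
Pol II to input at the start site (y, log2 ratio) against that in the gene body (x, log2 ratio) for the genes tested at both places, coloured by role, with SE bars (n = 2 against 2) and dotted lines at the medians of all genes tested (1.99 and 0.16). Trim63 and Psmc3 stand at the upper right, Psmb9 at the lower left, and Psma6 combines a body ratio of 1.07 with a start ratio of −1.30 that rests on 0 Pol II reads.

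Pol II density at the start was compared with that in the body within each Pol II library (reads per base with 0.5 reads added, log2). The median over the 53 members was 1.002 and 0.886 in the 2 experiments, and over 20340 genes 1.16 and 0.928. A gene without reads gets a ratio set by the lengths of its windows alone, as Psmb8 did (1.66 and 1.66 from 0 reads). Among genes called higher in the body the order turned, with 1.006 and 0.854 for 45 members and 0.795 and 0.688 for 7357 genes. These genes were chosen by their body reads, the denominator of the ratio, so no difference is drawn from this order. In input the same ratio was −0.17 and 0.13 for the members. Psmd10, a chaperone also known as gankyrin, had the highest mean of both libraries (2.56), with 2.72 and 2.41, from 5 and 8 reads at the start and 6 and 12 in the body. Psma8 was above it in replicate 2 alone (2.63, from 1 read at the start). Psma6 had the lowest mean (−2.09 and −2.57), for which the start used holds no reads, followed by Psma7 (−1.82 and −1.56) and Psmc3 (−0.82 and −1.47). Psma7 also had a low ratio in input (−3.31 and −1.50), where its start window held 1 and 5 reads.

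Deposited Pol II peaks were fewer than these calls. A peak of replicate 1 lay within 500 bp of the start in 10 of 54 members, where 7.3% of all genes had one, and a peak of replicate 2 in 18, where 11.2% had one. The 7 members with a start peak in both were Psmc3, Psmd2, Psmg1, Psmg2, Psmd5, Trim63 and Trim55 (13% of members, where 5.38% of all genes had one). Anywhere in the gene, 16 and 20 members had a peak (12.3% and 17.3% of all genes). No constitutive alpha or beta gene had a start peak in both lists.

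Of 13 genes for ubiquitin, its activating enzymes and carriers, 12 were higher than input at the start and 12 in the body, beside 62.8% and 39.4% of all genes tested, and the median log2 ratio in the body was 2.15. At the start 6 of these 13 genes were tested only through their Pol II reads, and without the filter 12 of 13 were higher, where 46.1% of all genes were. Uba6, an alternative activating enzyme, was not called at the start and was lower in the body (−0.47). This ratio and that of Uchl5 (−0.48), a deubiquitinase of the cap that was also called lower there, are smaller than the shift of the median of all genes with scaling to background regions, from 0.16 to 1.43. Of 11 partners and regulators of the proteasome 9 of 10 tested were higher at the start (all but Usp14) and 9 of 11 in the body (all but Ngly1 and Uchl5). Of the 9 called at the start 6 had under 20 input reads and so were tested only through their Pol II reads. Without the filter 9 of 11 were higher. Nfe2l1, the factor that drives proteasome genes when the proteasome is inhibited, had 14 and 29 Pol II reads at its start against 13 and 11 input reads (4.22 ± 0.38). Of 15 other ligases and regulators of muscle wasting 11 of 12 tested were higher at the start and 14 of 15 in the body, with the highest body ratio for Nedd4 (3.14). Of those called at the start 5 were tested only through their Pol II reads, and without the filter 14 of 15 were higher. Fbxo40, a muscle ligase, was the exception at both places (2 and 2 Pol II reads against 13 and 15 at the start).

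Sox6 was compared with input in the same windows. At start sites 3 of 47 members tested were higher than input and none was lower, where 3.71% of 11130 genes were higher, and the median log2 ratio was 0.15 for the members and 0.51 for all genes tested. Neither the sign nor the order of these medians held in all settings: they were −0.43 and 0.007 with a pseudocount equal in RPM, 1.17 and 1.32 with 2 reads added, and 0.50 and 0.32 without Sox6 replicate 2. Without the filter 4 of 54 members were higher, where 8.54% of genes were, the added one being Psme2b-ps with 0 Sox6 reads. In bodies 2 of 53 members were higher and none was lower, where 5.42% of 18719 genes were higher, and the medians were 0.21 and 0.17. Without the filter 3 of 53 were higher (Trim55 in addition), where 5.76% of genes were, and Psmb2 was lower. A median member had 0.67 and 0.681 RPM of Sox6 at the start against 0.546 and 0.619 RPM of input, or 2 and 1 Sox6 reads. With the filter, none of the 20S core genes was called in either window. In the other lists 0 of 4 partners and regulators, 0 of 7 ubiquitin genes and 1 of 10 atrophy genes (Cblb, 2.23 ± 0.70, tested only through its Sox6 reads) were higher at the start, and none of 11, 13 and 15 in the body, where AI314180 and Cul3 were lower.

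The 3 start calls were Trim55, Trim54 and Psmc3. Trim55 had 12 and 14 Sox6 reads (4.02 and 9.53 RPM) against 39 and 35 input reads (1.77 and 1.44 RPM), a log2 ratio of 1.99 ± 0.32 (adjusted p = 4.39e-07). Trim54 had 7 and 4 (2.34 and 2.72 RPM) against 22 and 16 (1.001 and 0.66 RPM), at 1.73 ± 0.47 (adjusted p = 0.0137). Psmc3 had 6 and 2 (2.01 and 1.36 RPM) against 8 and 11 (0.364 and 0.454 RPM), at 2.17 ± 0.69 (adjusted p = 0.045). Its 19 input reads are under the minimum of 20, so it was tested only through its Sox6 reads, and with a filter on input reads alone 2 of 52 members were called (Trim55 and Trim54, against 1.78% of genes) and Psmc3 was not (adjusted p = 0.063). In each gene both Sox6 libraries were above both inputs. With a pseudocount equal in RPM, and likewise with all 6 libraries in 1 fit, 1 of 47 members was called, so not all 3 calls held. Of all genes 1.37% and 0.92% were called in these settings. All 3 calls were lost without Sox6 replicate 2, with windows of 1 kb on each side and with voom weights, and 16 of 47 members were called without Sox6 replicate 1, where 31% of all genes were. Trim63 (4 and 2 Sox6 reads, 1.35 ± 0.63, adjusted p = 0.258) and Fbxo32 (2 and 0, 0.15 ± 0.99, adjusted p = 0.98) were not called.

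The 2 body calls were Psmg2 and Psmc3. Psmg2, a chaperone that pairs alpha subunits for the first steps of ring assembly, held 123 and 89 Sox6 reads (3.42 and 5.02 RPKM) against 247 and 242 input reads (0.932 and 0.827 RPKM), at 2.24 ± 0.20 (adjusted p = 0.00367). This call held in all alternatives tried, between 1.96 and 2.52. Nearly all of the difference came from 1 place: the 1000 bp around a Sox6 peak 9538 bp after the start held 105 and 70 of the Sox6 reads (85.4% and 78.7%), and 8.29% of the body length. Without it the log2 ratio was −0.05. Psmc3 had 1.36 and 1.9 RPKM of Sox6 against 0.821 and 0.974 RPKM of input (0.86 ± 0.22, adjusted p = 0.0467), a call lost when either input was left out, with a pseudocount equal in RPM and at a log2 ratio of at least 1. Without Sox6 replicate 1, 18 members were called higher and 7 lower in the body (36.1% and 15.4% of all genes), and without replicate 2, 12 higher and 4 lower (22.5% and 10.4%). Trim55 missed the threshold in the body (0.905 and 1.04 RPKM against 0.676 and 0.721 RPKM, 0.48 ± 0.13, adjusted p = 0.0568).

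**Figure D4:**
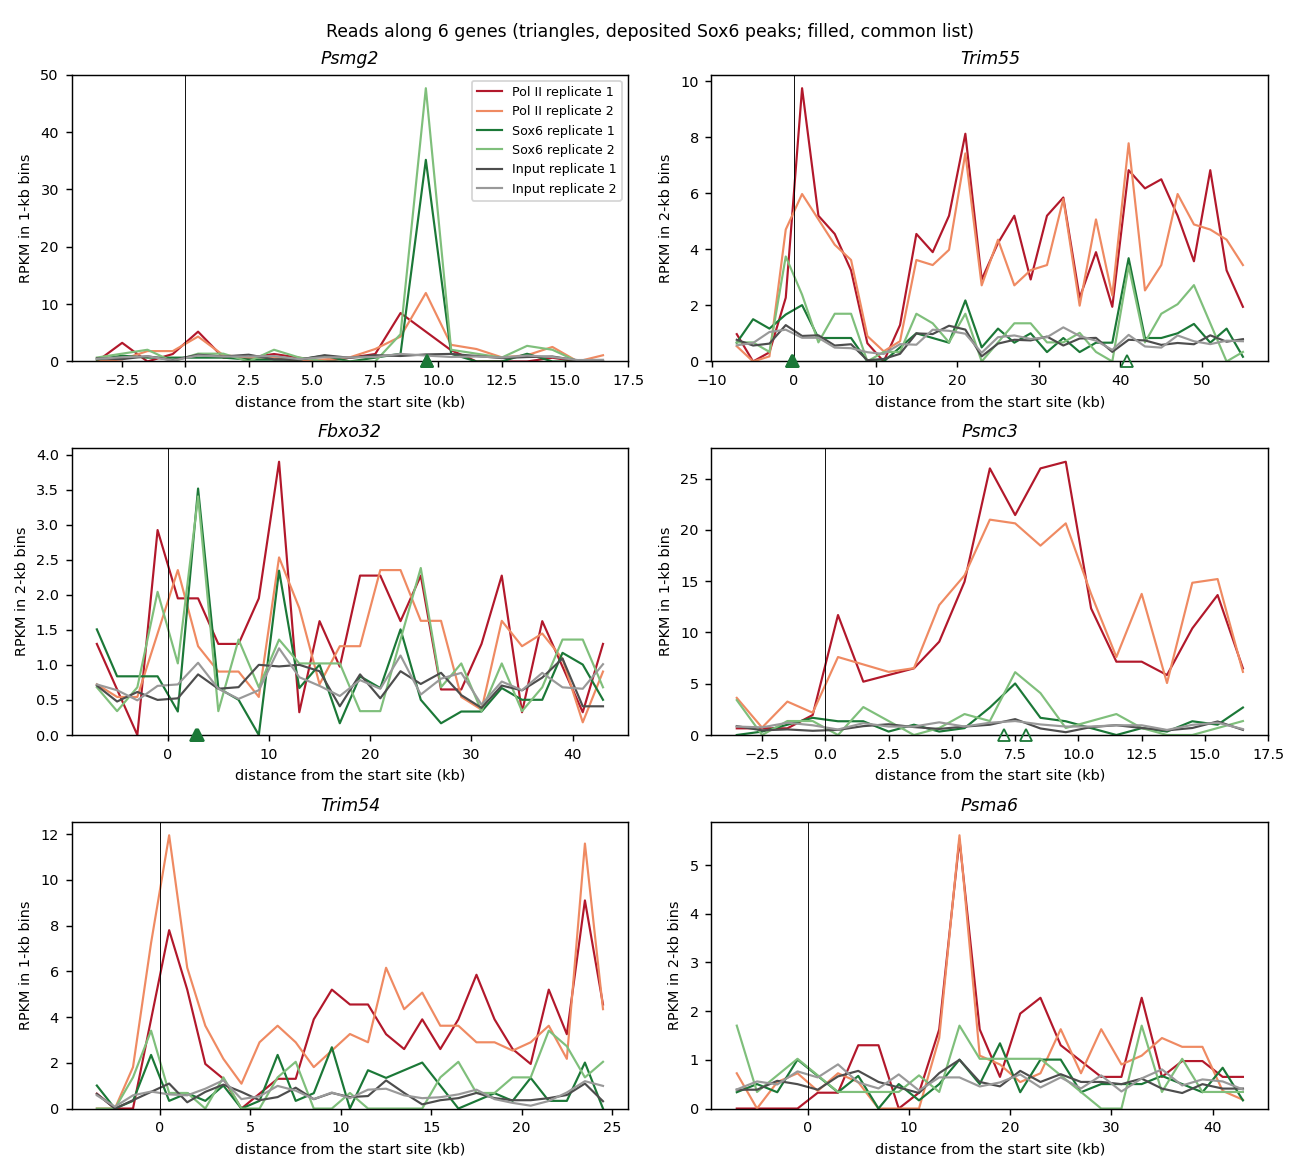
Reads along Psmg2, Trim55, Fbxo32, Psmc3, Trim54 and Psma6 (RPKM in bins of 1 or 2 kb) against distance from the start site (kb), 1 line per library, with triangles at deposited Sox6 peaks (filled, common list; open, 1 replicate). Sox6 reached 35.2 and 47.7 RPKM in 1 bin of Psmg2, Pol II was densest 6 to 10 kb into Psmc3, and in Psma6 Pol II was highest 14 to 16 kb after the start used (5.52 and 5.61 RPKM).

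Among the 1066 deposited Sox6 peaks common to both experiments, 3 members had a peak in the gene or within 20 kb (5.56% of 54), where 4.32% of all genes did. They were Psmg2, Fbxo32 and Trim55, the same 3 as at a limit of 5 kb, and a limit of 50 kb added Psmd11. The peak list of replicate 1 held in addition Psmb1, Psmc3, Psmd4 and Psmg3 (7 members, against 9.64% of genes), and that of replicate 2 in addition Psmc3 and Psmd4 (5 members, against 6.65% of genes). Sox6 was read at each peak within 450 bp, with the ratio to input given as a description, since the peaks were called on these reads.

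The Psmg2 peak (chr18:67810722-67810861, mm9) lies in intron 5. Sox6 had 96 and 66 reads there (32.2 and 44.9 RPM) and input 16 and 11 (0.728 and 0.454 RPM), a log2 ratio of 6.00 that ranked 9 of the 1066 common peaks, whose median was 3.52. The Pol II libraries were also above input there, with 6 and 16 reads (3.9 and 5.79 RPM), a log2 ratio of 3.07. Of the 32 and 81 Pol II body reads, 8 and 33 (25% and 40.7%) lay in the 1000 bp around the peak.

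Near Psmd4, which encodes a ubiquitin receptor of the cap, the peak of replicate 1 (at −11995 bp from the start, nearest to Pip5k1a) had 9 and 0 Sox6 reads, and that of replicate 2 (intron 1) had 4 and 9, so each was stronger in the library it was called in. The Psmb1 peak, 13384 bp past the end of the gene, had 8 and 3 Sox6 reads against 14 and 13 of input (2.1), and the Psmg3 peak, 1637 bp past the end, 9 and 5 against 8 and 9 (3.15). At both of these Pol II had as many reads or more (10 and 10, and 9 and 11).

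The Fbxo32 peak (chr15:58043502-58043541) lies in intron 1, 2912 bp after the start. Sox6 had 10 and 5 reads there (3.35 and 3.4 RPM) and input 5 and 11 (0.228 and 0.454 RPM), a log2 ratio of 3.4, below the median of 3.52 over the common peaks. Pol II had 5 and 4 reads there (3.25 and 1.45 RPM, 2.81). In both experiments the 2-kb bin with this peak was the one with most Sox6 along the gene (3.52 and 3.4 RPKM). The 220 bases that span the peaks of both replicates and the common interval are shown on the strand of the gene. Capitals mark a Sox core (ACAAAG or ACAATG, either strand) and E-boxes.
Fbxo32 intron 1 peak, chr15:58043432-58043651 (mm9, minus strand): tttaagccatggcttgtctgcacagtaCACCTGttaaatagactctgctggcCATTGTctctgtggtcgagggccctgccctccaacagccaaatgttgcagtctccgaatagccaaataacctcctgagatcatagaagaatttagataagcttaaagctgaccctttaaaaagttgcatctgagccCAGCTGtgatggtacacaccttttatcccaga

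The Trim55 peak (chr3:19544142-19544281) lies 249 bp upstream of the start. Sox6 had 6 and 10 reads there (2.01 and 6.81 RPM) and input 25 and 21 (1.14 and 0.866 RPM), a log2 ratio of 1.96 that only 4.69% of the common peaks fell below. The 2 experiments differed, at 0.91 and 3.01, each set against the input library of the same number. Input here was above its median of 0.546 and 0.619 RPM for a start window of 1001 bp, although the peak window is shorter. Its part in the ratio was not tested. A peak of replicate 1 alone lay in intron 9, 40831 bp after the start, where Sox6 had 14 and 6 reads (4.69 and 4.09 RPM) and input 9 and 12 (0.41 and 0.495 RPM), a log2 ratio of 3.3. The common interval holds neither a Sox core nor an E-box. The longer peak of replicate 2 (chr3:19544192-19544571) reaches past the start. It takes in an E-box 104 bases before the start and a Sox core 9 bases after it. The 250 bases before the start, which overlap the common interval, hold this E-box. They also hold an antioxidant response element core (TGACNNNGC, either strand) 21 bases before the start. Both are in capitals.
Trim55 common peak, chr3:19544142-19544281 (mm9, plus strand): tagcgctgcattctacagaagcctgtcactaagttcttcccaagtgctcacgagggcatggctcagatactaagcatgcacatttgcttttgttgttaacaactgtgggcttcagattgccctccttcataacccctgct
Trim55 promoter, chr3:19544210-19544459 (mm9, plus strand): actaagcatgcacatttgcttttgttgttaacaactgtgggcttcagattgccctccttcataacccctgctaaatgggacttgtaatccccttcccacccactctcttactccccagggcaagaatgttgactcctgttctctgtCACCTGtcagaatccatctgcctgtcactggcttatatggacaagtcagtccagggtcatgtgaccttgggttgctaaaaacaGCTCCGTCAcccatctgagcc

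In Psmc3 each experiment gave a peak in intron 11, but at different places, 7079 and 7909 bp after the start, and neither is in the common list. At the first Sox6 had 5 and 3 reads and input 19 and 17 (log2 ratio 1.39), and at the second 6 and 9 against 15 and 21 (2.25). The second lies in the stretch shared with Slc39a13. Pol II was denser than Sox6 at both, with 18 and 25 reads and 16 and 25 reads (log2 ratios 3.72 and 3.65). Each interval holds a CAGCTG, in capitals.
Psmc3, peak of replicate 1, chr2:90901272-90901311 (mm9, plus strand): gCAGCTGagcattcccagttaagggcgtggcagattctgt
Psmc3, peak of replicate 2, chr2:90902092-90902151 (mm9, plus strand): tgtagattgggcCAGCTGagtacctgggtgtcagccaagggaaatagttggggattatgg

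In a window of 300 bp at their centre, 65.9% of the common peaks hold a Sox core and 76% an E-box. The Psmg2 and Fbxo32 windows hold 1 Sox core and 2 E-boxes each, and the Trim55 window 1 Sox core and no E-box.

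The promoters were searched from 250 bases before to 50 after the start (mm9 sequence, both strands). Of 54 members 37 (68.5%) had a CpG ratio, observed to predicted from base composition, over 0.6, where 46.6% of 22214 promoters did. The antioxidant response element core was found in 8 members (14.8%, against 12.6% of all promoters), the CCAAT box in 21 (38.9%, against 37.7%), TATAAA in 7 (13%, against 13.3%), the NRF1 core in 7 (13%, against 8.29%), a Sox core in 11 (20.4%, against 25.6%) and an E-box in 13 (24.1%, against 31.8%). Among promoters with a CpG ratio over 0.6, the NRF1 core was in 16.2% of 37 members and 16.8% of 10356 genes, and TATAAA in 13.5% and 5.76%. Among these the Sox core was in 18.9% and 16.6%, so its order turned, and an E-box in 13.5% and 27.5%. The antioxidant response element core was in 16.2% and 14.9%, and the CCAAT box in 35.1% and 36.9%. Trim63, Trim55 and Trim54 have an E-box and Fbxo32 has none in this window. Psmb5, Psmb6 and Psmd9 have the antioxidant response element core 28, 38 and 31 bases before the start, and are shown because this core is the letter pattern by which Nfe2l1 and Nfe2l2 are known to act on proteasome genes. Pol II was called at the start of 7 of the 8 members with this core, all but Psmd9, and of 41 of 48 members tested.
Psmb5 promoter, chr14:55236852-55237101 (mm9, minus strand): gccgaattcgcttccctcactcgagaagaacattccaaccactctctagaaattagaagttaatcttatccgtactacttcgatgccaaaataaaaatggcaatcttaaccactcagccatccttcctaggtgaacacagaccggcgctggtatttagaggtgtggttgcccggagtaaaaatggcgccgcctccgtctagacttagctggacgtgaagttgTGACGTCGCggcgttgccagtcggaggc
Psmb6 promoter, chr11:70338638-70338887 (mm9, plus strand): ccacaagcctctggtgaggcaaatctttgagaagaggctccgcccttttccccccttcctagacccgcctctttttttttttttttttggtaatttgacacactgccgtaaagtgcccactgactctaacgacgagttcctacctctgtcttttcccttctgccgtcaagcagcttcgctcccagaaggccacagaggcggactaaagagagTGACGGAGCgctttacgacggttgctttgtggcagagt
Psmd9 promoter, chr5:123677949-123678198 (mm9, plus strand): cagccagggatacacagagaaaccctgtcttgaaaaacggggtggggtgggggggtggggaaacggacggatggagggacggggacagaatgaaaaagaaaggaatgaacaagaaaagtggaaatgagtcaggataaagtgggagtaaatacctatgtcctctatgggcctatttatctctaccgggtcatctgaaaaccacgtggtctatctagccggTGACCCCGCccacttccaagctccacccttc

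Of the 54 members 10 share a promoter region with a protein-coding gene on the opposite strand, whose start lies within 1 kb, where 10.3% of all genes do. They were Psma2, Psma4, Psma7, Psmb9, Psmc2, Psmc5, Psmd10, Psmd13, Psme2 and Psmg2. The deposited reads give no strand of transcription, so the Pol II reads at these starts cannot be told apart between both genes.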

How the data were processed

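Per the labels and the study's methods, the authors aligned single-end reads with Bowtie 0.12.5 to NCBI Build 37, kept unique matches, and called peaks with SISSRs against input. The deposited files hold positions of reads and peaks. No column of counts, normalized signal or p-values was used, and peak scores were left out. Repeated positions, 2.96% to 7.88% of reads, were kept.

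Members and gene lists were chosen with earlier results of these data known. Genes are the longest protein-coding models of GENCODE vM1, on the same build. Reads were counted by 5' end with Python 3.11.15. The counts, with 0.5 reads added, were compared with input by limma in R (trend, two-sided, Benjamini-Hochberg over all genes tested), each immunoprecipitation with both inputs. Every limma call rests on 2 libraries against 2. The study calls the immunoprecipitations independent experiments, but nothing says that they came from separate cultures, so the p-values measure only the spread between these libraries, which may be technical. edgeR and DESeq2 were not used. The script was tested on simulated data. Values are printed for members with a Sox6 peak, the ligases, the ends of each role group at the start site, members not called higher there, and the highest and lowest ratios of start to body. Other members named were chosen after their values were seen. Input replicate 1 has reads of 36 bp, the others 39 bp. Psmg2 and Psma8 sequences are not reported here.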

Additional observations from a re-analysis of the deposited data

How the results depend on the processing

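In the alternatives tried 34 to 46 members were called higher for Pol II at start sites, where 41 were reported. In bodies it was 41 to 49 (27.4% and 64.4% of all genes in these 2 settings), where 45 were reported. The share of all genes at start sites moved as well. Within 250 bp 34 of 34 members and 81.7% of 4617 genes were higher, and within 1 kb 44 of 53 and 44.2%. Most of the 34 were tested only through their Pol II reads, so this count and its medians depend on the filter. With 2 reads added it was 46 of 48 and 82.8%. The start medians of members and all genes were 2.94 and 2.90 within 250 bp, and 1.97 and 0.90 within 1 kb. With a library left out they were 2.38 and 2.30 (input replicate 1), 2.83 and 2.67 (input replicate 2), 2.69 and 1.95 (Pol II replicate 1) and 2.62 and 2.02 (Pol II replicate 2). A filter on input reads alone, chosen after seeing the data, gave 41 of 52 (45.8% of all genes) and 45 of 53 (38.3%), and for Sox6 2 of 52 at start sites and 2 of 53 in bodies. At Pol II start sites 2 members were lower with a pseudocount equal in RPM (7.19% of all genes), 1 with voom weights (2.36%) and 1 without Pol II replicate 1 (9.49%). Scaling to background bins turned the Psma8 body ratio from −1.14 to 0.13. The 2 members lower in Pol II bodies became 0 with that scaling (2.48% of all genes) and 3 with voom weights (23.7%). They became 1 with 2 reads added (21.9%) and 1 with a pseudocount equal in RPM (25.2%). The Sox6 calls were unstable. As reported no member was lower at start sites, but 1 was with a pseudocount equal in RPM (5.19% of all genes). At start sites the 3 members became 13 of 47 with 2 reads added (32.8% of all genes), 1 with a pseudocount equal in RPM, 0 with voom weights, 1 with all 6 libraries in 1 fit and 0 with 1 kb on each side, and 0 (without Sox6 replicate 2) to 16 (without Sox6 replicate 1) with a library left out. In bodies the 2 became 1 with a pseudocount equal in RPM and 1 at a log2 ratio of at least 1, and 1 (without either input) to 18 (without Sox6 replicate 1) with a library left out. No member was lower in Sox6 bodies as reported, but 4 were with the replicate block (5.91% of all genes) and 2 with all 6 libraries in 1 fit (1.77%). With voom weights 1 was lower (1.82%), and without the filter 1 (1.88%). The cause was not tested. With the replicate number as a block the Sox6 body count became 5 of 53 (14.2% of all genes). For Pol II 41 members were then called at start sites (60.4%) and 45 in bodies (39.5%), and for Sox6 3 at start sites (4.52%). Libraries of the same number did not deviate together (correlations from −0.02 to 0.05 over genes), so the numbers were not taken as pairs. The start-to-body median of 0.82 was 1.10 with 2 reads added, 1.10 within 250 bp, 0.50 within 1 kb, and 0.886 to 1.002 with a Pol II library left out. At the Psmg2 peak 6.00 became 5.09 in a window of 1000 bp, and 5.67 to 6.33 with a library left out. At the Fbxo32 peak 3.40 became 3.46 in the deposited interval, 2.77 in 1000 bp, 3.49 with repeated positions counted once, and 2.94 to 3.86 with a library left out. At the Trim55 peak it was 1.10 to 2.82. Members with a Sox6 peak were 7 and 5 with the peaks of replicate 1 and 2. The median member had 28 reads over both inputs in the start window and 334 in the body.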
